A study of Mus musculus with 2 samples.

Results

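The genes Lox, Pdzk1, Slc1a1, Clstn3, Cadm4, Dock3, Mlana and S100b of red pulp macrophages (RPMs) made up 8 of the 26124 genes counted in spleen cells of 2 mice. They were picked for a strong fall between the libraries of these mice in RPMs, so that fall is given as a description and supports nothing. The rule of the choice named RPMs alone, and not other macrophages, other cell types, relatives or genome neighbours. The genes were chosen with earlier results of these data known, so values in those cells and genes may not be independent of the choice. A strong fall in RPMs needs UMIs in RPMs of the library where the genes are high. Their presence in RPMs is therefore partly given by the choice.

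The data were 2 droplet scRNA-seq libraries of spleen cells captured with beads that bind F4/80, a macrophage surface protein, from mice of 12 to 16 weeks without treatment. By their labels, both mice lacked the mouse α-globin genes (Hba−/−) and carried Tg(HBA-HBBs)41Paz, a transgene that supplies human α-globin and sickle β-globin. The SCD-labelled library (sickle cell disease) came from 1 Berkeley mouse that also lacked both copies of mouse β-globin (Hbb−/−) and was homozygous for the transgene. The wild-type-labelled library came from 1 control mouse with 1 copy of mouse β-globin (Hbb+/−) and 1 of the transgene, so it is a carrier control and not an animal with normal globin genes. Each condition is 1 mouse, so the conditions could not be tested against each other. Genotype, mouse and library cannot be told apart here.

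The wild-type-labelled library held 145953464 UMIs (molecules tagged at reverse transcription) in 24144 barcodes, and the SCD-labelled library 73986356 in 15442. After filters on genes and RNA quality, 19419 and 12280 cells were kept, with medians of 4115 and 4570 UMIs per cell. The libraries shared 107 barcodes, 0.443% and 0.693% of their own. The globin genes went against the labels. Mouse Hba-a1, which both mice should lack, was at 27340 counts per 1000000 UMIs (CPM) in erythroid-like cells of the wild-type-labelled library and at 30759 in those of the SCD-labelled library. In these erythroid-like cells Hbb-bs had 153 CPM in the former and 46864 CPM in the latter, while Hbb-bt had 296 CPM in the former and 16010 CPM in the latter. The Y-linked gene Ddx3y had 188 CPM in RPM-like cells of the former and 230 in those of the latter. The samples are therefore called the wild-type-labelled library and the SCD-labelled library. Any direction below rests on labels that Hbb-bs and Hbb-bt contradict.

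RPMs clear aged red blood cells in the spleen and return the iron of heme to the circulation, and erythroblastic island (EBI) macrophages hold maturing erythroid cells on their surface. None of the 8 genes is a textbook marker of either cell. Lox encodes lysyl oxidase, the secreted enzyme that cross-links collagen and elastin. Pdzk1 encodes a scaffold with PDZ domains that holds membrane proteins such as the HDL receptor Scarb1, and Slc1a1 a transporter of glutamate and cysteine. Clstn3 and Cadm4 encode cell adhesion proteins known from synapses and from myelinating glia, and Dock3 an activator of the small GTPase Rac1 known from neurons. Mlana (melan-A) is a melanosome protein of melanocytes, and S100b a calcium-binding protein of astrocytes and Schwann cells.

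RefSeq gave promoters of 6 of the 8 genes, 8 windows in all, each from 250 bases before to 50 after a start in GRCm38.p6. Lox and Mlana were not among them. Short motifs were searched on both strands. They were GAGGAAGT (bound by the macrophage factor PU.1), TGCTGAC (part of the site of MAF factors), TGACNNNGC (the core that NRF2 binds with a MAF partner, which overlaps TGCTGAC in its letters TGAC) and TCATGTG (bound by MITF and its relatives). TGCTGAC was in 1 of the 8 windows, at Clstn3, against 4.67% of the 32851 promoters in the table. TGACNNNGC was in 1 of 8, at Pdzk1, against 12.4%, and GAGGAAGT and TCATGTG in 0 of 8, against 3.20% and 3.77%. The windows with a match are printed first, with the match in capitals, at -87 from the start (read on the other strand) for Pdzk1 and at -4 for Clstn3. The windows of the 3 genes that had 0 UMIs in RPM-like cells of the SCD-labelled library follow, in which none of the motifs was found. Each runs 5′ to 3′ from 250 bases before to 10 after the start, at chr3:96831921-96832180 on the plus strand, chr6:124464775-124465034 on the minus strand, chr19:28834885-28835144 on the plus strand, chr7:24481773-24482032 on the plus strand and chr10:76253586-76253845 on the plus strand. A match is a description of letters and not of binding.
Pdzk1: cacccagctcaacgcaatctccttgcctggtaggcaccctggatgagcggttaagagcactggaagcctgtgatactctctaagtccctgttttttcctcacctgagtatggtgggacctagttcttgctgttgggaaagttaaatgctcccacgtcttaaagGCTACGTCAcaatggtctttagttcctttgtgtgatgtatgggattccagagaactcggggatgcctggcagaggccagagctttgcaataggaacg
Clstn3: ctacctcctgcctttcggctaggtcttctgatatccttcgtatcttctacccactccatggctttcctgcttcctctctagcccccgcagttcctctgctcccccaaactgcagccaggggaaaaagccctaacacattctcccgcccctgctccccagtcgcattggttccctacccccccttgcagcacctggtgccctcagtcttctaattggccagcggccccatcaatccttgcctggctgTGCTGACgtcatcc
Slc1a1: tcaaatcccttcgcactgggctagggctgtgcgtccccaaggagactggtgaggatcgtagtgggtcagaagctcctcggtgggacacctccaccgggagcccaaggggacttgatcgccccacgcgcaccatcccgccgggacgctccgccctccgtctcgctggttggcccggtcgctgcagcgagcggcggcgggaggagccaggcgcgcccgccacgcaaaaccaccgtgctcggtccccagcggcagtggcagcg
Cadm4: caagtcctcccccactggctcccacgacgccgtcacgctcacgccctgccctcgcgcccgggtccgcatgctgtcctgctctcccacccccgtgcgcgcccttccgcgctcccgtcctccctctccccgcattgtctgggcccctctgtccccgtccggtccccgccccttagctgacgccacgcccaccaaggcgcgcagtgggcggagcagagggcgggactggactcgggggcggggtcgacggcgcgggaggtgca
S100b: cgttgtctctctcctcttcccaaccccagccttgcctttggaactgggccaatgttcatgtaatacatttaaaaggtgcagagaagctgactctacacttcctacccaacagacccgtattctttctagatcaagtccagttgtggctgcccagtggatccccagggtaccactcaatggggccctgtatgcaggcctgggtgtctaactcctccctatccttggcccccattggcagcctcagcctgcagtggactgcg

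In the annotation of the mouse genome build GRCm38 (GENCODE M21) the 8 genes lay on 7 chromosomes. Lox was at chr18:52516067-52529867, Pdzk1 at chr3:96829284-96870926 and Clstn3 at chr6:124430759-124464794. Cadm4 was at chr7:24482023-24504539, Dock3 at chr9:106892825-107231909 and S100b at chr10:76253853-76261159. Slc1a1 (chr19:28835049-28913960) and Mlana (chr19:29697824-29708634) shared a chromosome, with 862.8 kb between their starts. Among genes counted in the matrix, those that overlap Pdzk1 (Cd160 and Gpr89), Slc1a1 (4430402I18Rik) and S100b (Dip2a) lie on the opposite strand. Gpr89, 4430402I18Rik and Dip2a had 533, 18 and 121 UMIs in RPM-like cells of the wild-type-labelled library and 198, 3 and 41 in those of the SCD-labelled library. Counts near the 3′ end do not separate the isoforms of a gene.

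Cells were clustered without the 8 genes and named from markers. Clusters with markers of red pulp macrophages (Spic, Vcam1, Cd5l, C1qa, Adgre1, Mertk, Axl) were called RPM-like, and those that also had erythroid markers EBI-like. RPM-like cells numbered 4747 (24.4% of kept cells) in the wild-type-labelled library and 1581 (12.9%) in the SCD-labelled library, with medians of 2138 and 4142 UMIs per cell. EBI-like cells numbered 6245 and 983. The 7 macrophage markers summed to 20186 CPM in RPM-like cells of the wild-type-labelled library and to 17618 CPM in those of the SCD-labelled library. The single markers did not all keep their level. Cd5l was lower in the SCD-labelled library, as the 8 genes were, at 3107 and 557 CPM, while Spic had 1028 CPM in the wild-type-labelled library and 1690 in the other, and Vcam1 8489 and 8223. The clusters behind each class differed between the libraries. Cluster 1 (led by Abcc5 and Ank2) held 1064 and 7 cells, cluster 9 (Marco and Cd5l) 3651 and 22, and cluster 22 (Rgs1 and Adamdec1) 32 and 1552. A cluster mostly of 1 library may be that library and not a type of cell.

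Lox, the matrix cross-linking enzyme, had 1124 UMIs in RPM-like cells of the wild-type-labelled library and 3 in those of the SCD-labelled library. That is 66.3 CPM (95% interval 62.5 to 70.3) against 0.410 (0.0845 to 1.197), a level 162 times lower (55.2 to 786) and a log2 ratio of -7.34. Intervals are exact and cover counting error only, since each library is 1 mouse. Pdzk1 had 1250 and 4 UMIs, or 73.7 and 0.546 CPM, 135 times lower (52.6 to 496).

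Slc1a1, the glutamate and cysteine transporter, had 271 UMIs (16.0 CPM) and 0. With the 0 set to a floor of 3 UMIs per library it was at least 39.0-fold lower in the SCD-labelled library, and the exact 95% interval of the ratio, the basis used for the other genes, began at 31.5. For Clstn3 the UMIs were 387 and 1, or 22.8 and 0.137 CPM, and the ratio of 167 carried an interval of 29.8 to 6618. Cadm4 went from 194 UMIs (11.4 CPM) to 0, at least 27.9-fold lower at the floor, with an interval from 22.5. In all 3 genes the wild-type-labelled library had at least 194 molecules where the other had at most 1.

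Dock3, the Rac1 activator, had 692 and 3 UMIs, or 40.8 and 0.410 CPM, 99.6 times lower (33.9 to 484). Mlana, the melanosome protein, had 355 and 2 UMIs, or 20.9 and 0.273 CPM, 76.7 times lower (21.1 to 635). S100b, the glial calcium-binding protein, had 183 UMIs (10.8 CPM) and 0, at least 26.3-fold lower at the floor, with an interval from 21.2.

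**Figure D1:**
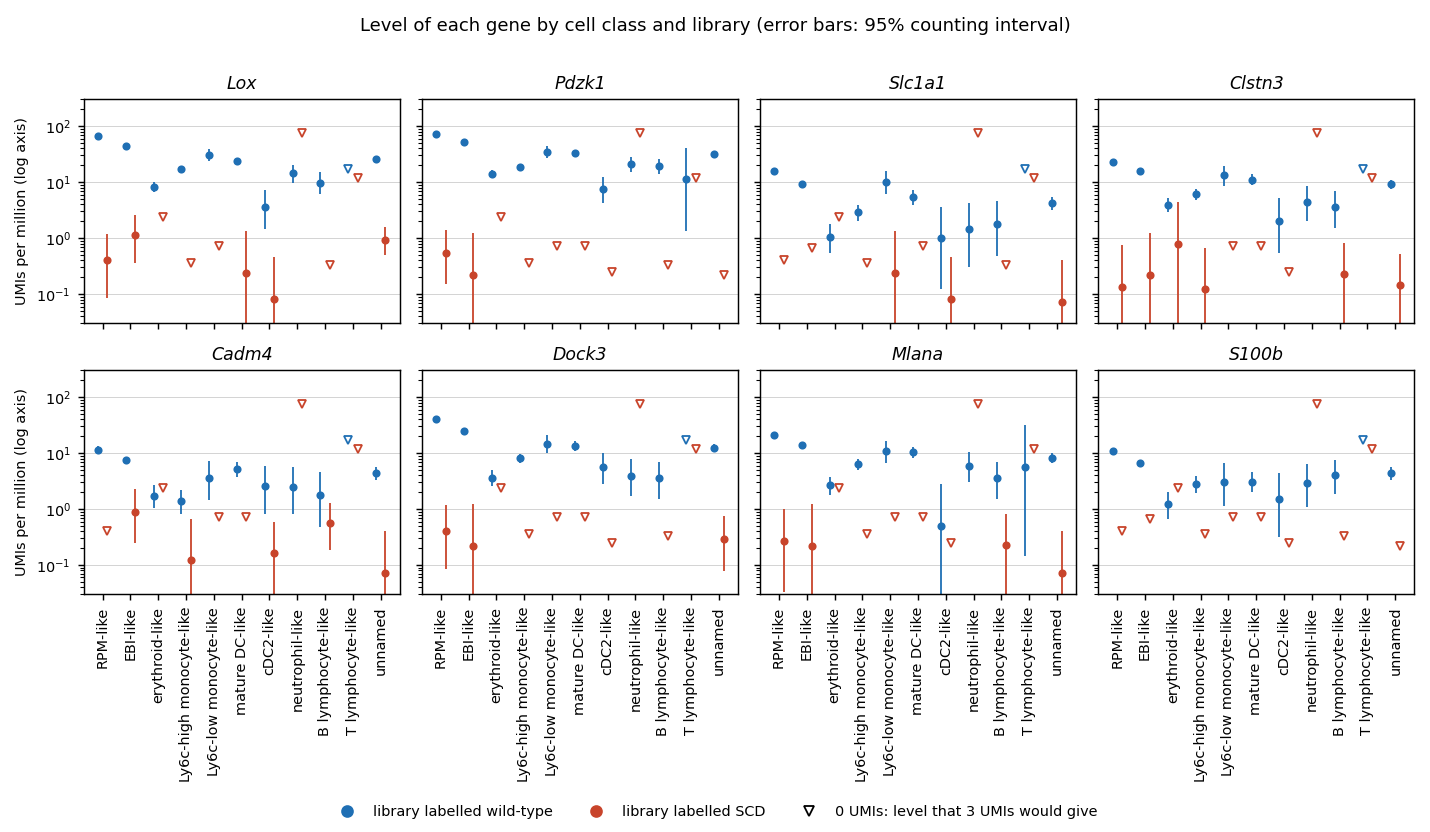
Level of each gene in CPM (log axis) in 11 cell classes of the wild-type-labelled library (blue) and the SCD-labelled library (red), with bars for the 95% counting interval and open triangles for 0 UMIs, drawn at the level of 3 UMIs. The mature DC-like class holds cluster 6, led mostly by erythroid genes. Lox stood at 66.3 and 43.8 CPM in RPM-like and EBI-like cells of the wild-type-labelled library, above its other classes there, and at 0.410 and 1.12 CPM in the same classes of the SCD-labelled library.

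All 8 genes were thus at least 4-fold lower in RPM-like cells of the SCD-labelled library, where 189 of the 9973 genes with at least 100 UMIs were (1.9%) and 126 were at least 4-fold higher (1.26%). Since the genes were picked on this contrast, nothing is read from the count. In the order of falls they took places 1 (Clstn3), 2 (Lox), 4 (Pdzk1), 5 (Dock3), 6 (Mlana), 16 (Slc1a1), 18 (Cadm4) and 19 (S100b). The last 3, with 0 UMIs in the SCD-labelled library, were placed by the floor, at log2 ratios of -5.29, -4.80 and -4.72, so their places are not exact. The others rest on 1 to 4 UMIs each in that library, so their places are not exact either. Just outside were Fstl3, an inhibitor of activin, at -4.64 (1328 and 23 UMIs), and Phlda3, at -4.64 (173 and 3 UMIs). The median over all 9973 genes was 0.20 on the log2 scale.

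In EBI-like cells, which the choice did not name, all 8 genes were again at least 4-fold lower in the SCD-labelled library, where 151 of 10739 genes were (1.41%). It is the same pair of mice, so this is no independent replicate. Lox had 1567 and 5 UMIs (43.8 and 1.12 CPM, log2 ratio -5.30) and Pdzk1 1880 and 1 (52.6 and 0.223 CPM, -7.88). Clstn3 had 558 and 1 UMIs, Dock3 881 and 1, and Mlana 503 and 1. Slc1a1 had 338 and 0, at least 14.1-fold lower at the floor (interval from 11.4), and S100b 239 and 0, at least 9.98-fold lower (interval from 8.06). Cadm4 had 265 and 4 UMIs, or 7.41 and 0.892 CPM, 8.30 times lower (3.20 to 30.7).

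The SCD-labelled library was not fully empty of the 8 genes. Over all of its barcodes, kept or not, it held 77 of their UMIs, and the wild-type-labelled library 19450. S100b had 0 UMIs in any barcode, against 760 in the other library. Lox had 25 UMIs in 16 barcodes against 4885, Clstn3 14 against 1795, Cadm4 14 against 821 and Dock3 8 against 2751. Pdzk1 had 6 against 5797, Mlana 6 against 1575 and Slc1a1 4 against 1066. None of these barcodes was shared with the other library.

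The residual UMIs of the SCD-labelled library did not sit mostly in macrophages for every gene. Lox had 12 of its 25 UMIs in 6 of the 1326 cells of cluster 17, an unnamed cluster led by Cd209a and Clec10a, and 1 of those cells held 5. Another 5 Lox UMIs were in 2 of the 666 cells of EBI-like cluster 24. Dock3 had 4 of 8 UMIs in 3 cells of cluster 17. Cadm4 had 5 of 14 UMIs in the main cluster of B lymphocyte-like cells, 1 in each of 5 cells, and 4 in EBI-like cells. All but 1 of the 6 Pdzk1 UMIs were in macrophage-like cells, and Slc1a1 had none there.

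RPM-like cells held more UMIs each in the SCD-labelled library, with medians of 2138 in the wild-type-labelled library and 4142 in the SCD-labelled library. EBI-like cells held fewer there, with medians of 3766 and 3005 in the same order. With each cell thinned to 1000 UMIs, 22.3% (21.0 to 23.6%) of 4066 RPM-like cells of the wild-type-labelled library had a UMI of any of the 8 genes, and 0.208% (0.0429 to 0.607%) of 1442 in the SCD-labelled library. Thinning left out 681 and 139 shallower cells. In EBI-like cells the shares were 14.1% and 0.206%. That B lymphocytes lack these genes was assumed and not tested, and the main cluster of B lymphocyte-like cells served as the reference for free RNA. There the shares were 2.03% (0.979 to 3.71%) of 492 cells and 0.0581% of 1721. Without thinning the shares were 43.6% and 0.759% in RPM-like cells and 5.84% and 0.460% in the main B cluster, at medians of 2116 and 2896 UMIs in the latter. The thinned share in RPM-like cells of the SCD-labelled library had an interval that overlapped that of its B cells (0.00147 to 0.323%), but these shares rest on 3 cells and 1 cell. The genes were not alike in where their UMIs lay in this library. Of the 8 UMIs in its main B cluster 5 were of Cadm4. Cadm4 was at 0.843 CPM (0.274 to 1.97) there and at 0.339 (0.0923 to 0.867) in macrophage-like cells, so this cluster is no clear reference for it. Pdzk1 was at 0.423 CPM (0.138 to 0.988) in macrophage-like cells and at 0 (up to 0.0695) in all others.

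Which cells held the transcripts was examined within the wild-type-labelled library. RPM-like and EBI-like cells together gave 49.1% of all UMIs of kept cells and 72.9% (72.2 to 73.7%) of the 14651 UMIs of the 8 genes. The 7 macrophage markers summed also had 72.9% of their UMIs there, from 66.1% for Adgre1 to 75.9% for Mertk. The single genes ran from 71.0% for Pdzk1 and Mlana to 77.3% (74.2 to 80.2%) for Slc1a1. Lox was at 73.4%, Clstn3 at 71.1%, Cadm4 at 74.3%, Dock3 at 76.7% and S100b at 72.6%. The shares of the 8 genes were thus close to those of the macrophage markers. Part of each share is given by the choice of genes counted in RPMs, so it is a description.

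The remaining 3964 UMIs lay in other cells, at lower levels. Of these, 1380 were in unnamed clusters, where Lox was at 25.9 CPM. Unnamed cluster 18, with 525 cells of this library, met the limits of EBI-like cells but was led by B lymphocyte genes. Its cells are therefore counted, here and below, among those that were not macrophage-like. Lox was at 30.7 CPM in Ly6c-low monocyte-like cells, 17.01 in Ly6c-high monocyte-like, 14.3 in neutrophil-like, 9.85 in B lymphocyte-like, 8.30 in erythroid-like and 3.55 in cDC2-like cells. Of the 1199 cells classed as mature DC-like, 765 were in cluster 6, where more of the 10 leading genes are erythroid (Hbb-bs, Hbb-bt and Bpgm among them) than of mature DCs (Fscn1, Ccr7), so the clusters are given apart. Lox was at 25.4 CPM in cluster 6 and at 18.4 in cluster 7, which Fscn1 and Ccr7 led. In the Ly6c-high class, the 200 cells of cluster 11 were led by the progenitor genes Mpo, Elane and Prtn3. T lymphocyte-like cells, only 66 in number, had 3 UMIs of the 8 genes in all. The macrophage markers were found in the same classes, from 1763 CPM in cDC2-like to 8333 in Ly6c-low monocyte-like cells.

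Set against the macrophage markers in the same cells, the 8 genes summed had 13.02 UMIs per 1000 marker UMIs in RPM-like cells. In all cells that were not macrophage-like the sum had 12.97. Single genes strayed from a fixed ratio. Lox had 3.28 UMIs per 1000 marker UMIs in RPM-like cells, 3.26 in EBI-like, 3.68 in Ly6c-low monocyte-like, 3.07 in cluster 6, 2.42 in cluster 7 and 3.20 in all cells that were not macrophage-like. For all 8 genes the interval of the ratio relative to RPM-like cells held 1 in EBI-like, Ly6c-low monocyte-like and cDC2-like cells, in clusters 6 and 7 taken as 1 class, and in the main B cluster, where the 8 genes had 32 UMIs in all. The same held in T lymphocyte-like cells, with 3 UMIs in all. The cDC2-like cells had 48 UMIs in all, and their ratios ran from 0.278 to 2.54 times those of RPM-like cells. In the other classes 1 or more intervals missed 1. Pdzk1 was at 1.40 (1.18 to 1.65) times its RPM-like ratio in erythroid-like, 1.54 in B lymphocyte-like and 1.53 in neutrophil-like cells. Slc1a1 was at 0.469 and Dock3 at 0.643 times theirs in erythroid-like cells, Cadm4 at 0.495 in Ly6c-high monocyte-like cells, and Slc1a1 and Dock3 at 0.660 and 0.758 in unnamed clusters. Over all cells that were not macrophage-like, Pdzk1 was at 1.14 (1.06 to 1.24) times its RPM-like ratio. There Slc1a1 was at 0.740 (0.609 to 0.897) and Dock3 at 0.774 (0.687 to 0.871) times theirs. In no named class did more than 1 of the 8 genes have an interval above 1, while 2 lay below in erythroid-like cells and 1 in Ly6c-high monocyte-like cells. Intervals are wide where UMIs are few, so holding 1 there says little. Other genes were not counted in this way, so nothing particular to the 8 genes is read from these counts. Whether other cells made any of these transcripts themselves was not tested.

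**Figure D2:**
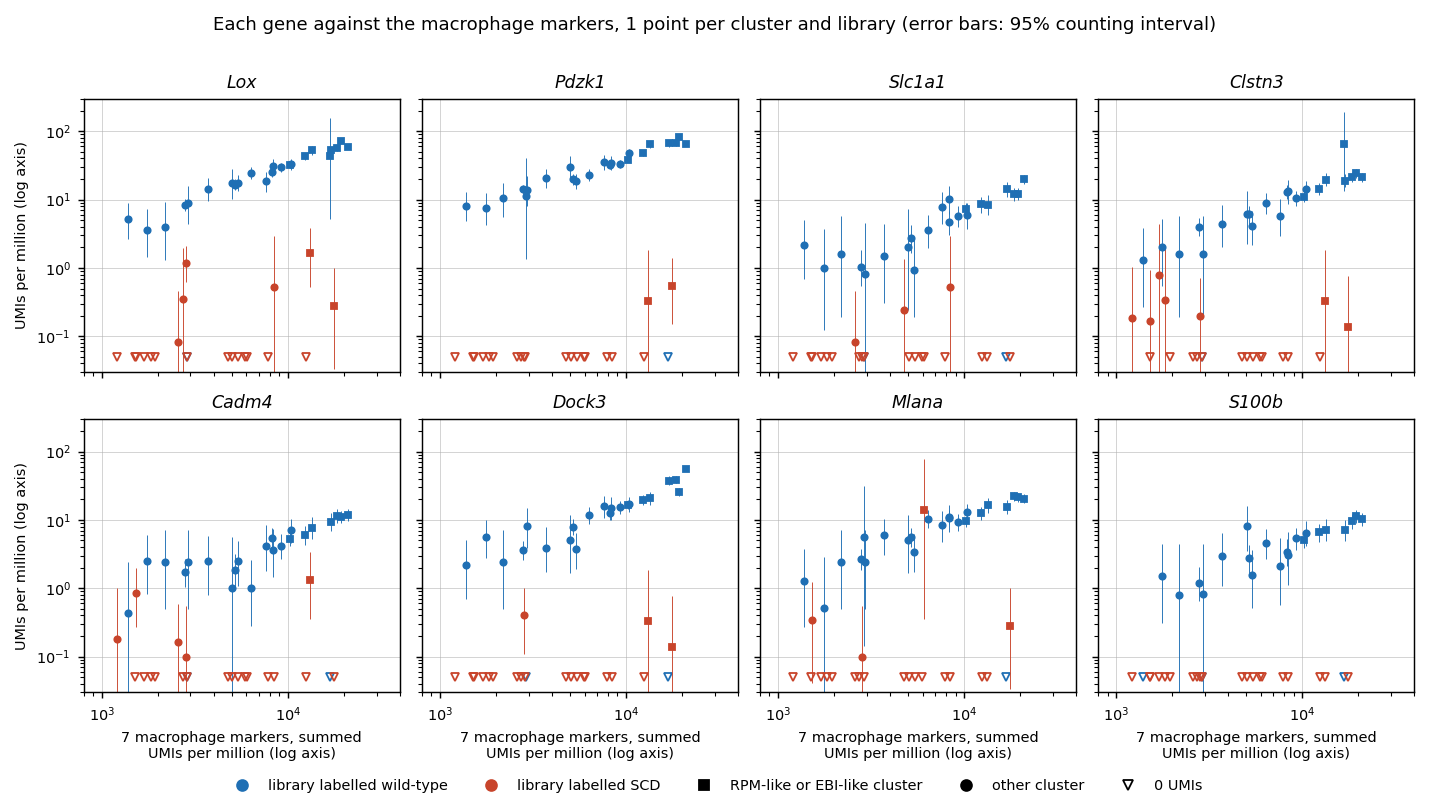
Level of each gene in CPM (vertical, log axis) against the summed CPM of the 7 macrophage markers (horizontal, log axis), 1 point per cluster and library with at least 20 cells (blue, labelled wild-type, and red, labelled SCD, squares for RPM-like and EBI-like clusters), with 95% counting intervals. In the wild-type-labelled library the 8 genes broadly climb with the markers. Lox is at 59.5 CPM at 21039 CPM of markers in cluster 1, and higher in cluster 9. Cluster 22 of the SCD-labelled library has 17658 CPM of markers and lies near or at 0.

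The 2 large RPM-like clusters of the wild-type-labelled library held the genes in unequal measure. Dock3 was at 56.2 CPM (51.2 to 61.5) in cluster 1 and at 25.8 (22.5 to 29.4) in cluster 9, and Slc1a1 at 19.95 (17.05 to 23.2) and 12.1 (9.90 to 14.7). Lox ran the other way, at 59.5 (54.4 to 64.9) in cluster 1 and 73.1 (67.5 to 79.1) in cluster 9, as did Pdzk1, at 66.0 (60.7 to 71.8) and 81.7 (75.7 to 88.0). The intervals of Clstn3, Cadm4, Mlana and S100b overlapped, with 20.5 and 21.4 CPM of Mlana as an example. Dock3 was among the 10 leading genes of cluster 1, though not used to form it. Cells of cluster 1 were deeper, with a median of 7192 UMIs against 1663 in cluster 9.

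Few cells stood in the cluster of the other library. The 32 cells of the wild-type-labelled library in cluster 22 had 2 UMIs of Lox (43.4 CPM, 5.26 to 157) and 3 of Clstn3 (65.1 CPM, 13.4 to 190), and 0 of the other 6 genes. The 22 cells of the SCD-labelled library in cluster 9 had 0 UMIs of all 8. The 1552 cells of the SCD-labelled library in cluster 22 had 4 UMIs of Pdzk1, 2 each of Lox and Mlana, and 1 each of Clstn3 and Dock3. They had 0 of Slc1a1, Cadm4 and S100b. Its 7 cells in cluster 1 had 1 UMI of Lox and 2 of Dock3, among 30107 UMIs. Whether the levels go with the cluster or with the library cannot be told apart from so few cells.

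Within cluster 1 the UMIs of Lox and Dock3 were gathered in fewer cells than an even spread would give. Lox was found in 25.9% of cells, against 36.0% had its UMIs been spread evenly by depth, and 1 cell held 19 of its 501 UMIs. Dock3 was found in 27.7% against 34.5%. Cadm4 (8.18% against 8.79%) and S100b (7.33% against 7.78%) lay close to an even spread. In cluster 9, Lox was in 11.8% of cells against 14.8%, and S100b in 2.49% against 2.57%. Of the 4747 RPM-like cells, 302 (6.36%) held UMIs of 3 or more of the genes, and the most in 1 cell was 7.

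The genes were next compared within the same cells, as the level of one in cells with and without a UMI of another. In cluster 1 the level was higher in cells with the other gene for 53 of 56 ordered pairs, with a median ratio of 1.48, and the counting interval lay above 1 for 31 and below 1 for 1. In cluster 9 it was higher for 48 of 56, with a median of 1.21 and 11 intervals above 1. Cells with a UMI were deeper, and the ratios are of levels in CPM. Mlana was at 49.8 CPM in the 136 cells of cluster 1 with Slc1a1 and at 15.1 CPM in the 928 without, a ratio of 3.30 (2.39 to 4.53). The reverse ratio was 2.56 (1.82 to 3.56), and in cluster 9 the same pair gave 1.89 (1.04 to 3.21) and 2.60 (1.45 to 4.42). Lox and Cadm4 gave the lowest ratios of cluster 1 in either order, 0.669 (0.401 to 1.08) and 0.703 (0.489 to 0.983). Cells are not replicates of a condition, and the counts are sparse. Each pair of genes enters in both orders, so the 56 ratios are not independent of each other. Pairs of other genes were not compared in this way, so nothing particular to these genes is read from the counts of pairs. The intervals treat UMIs as independent, although those of Lox and Dock3 were gathered in fewer cells than an even spread would give.

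**Figure D3:**
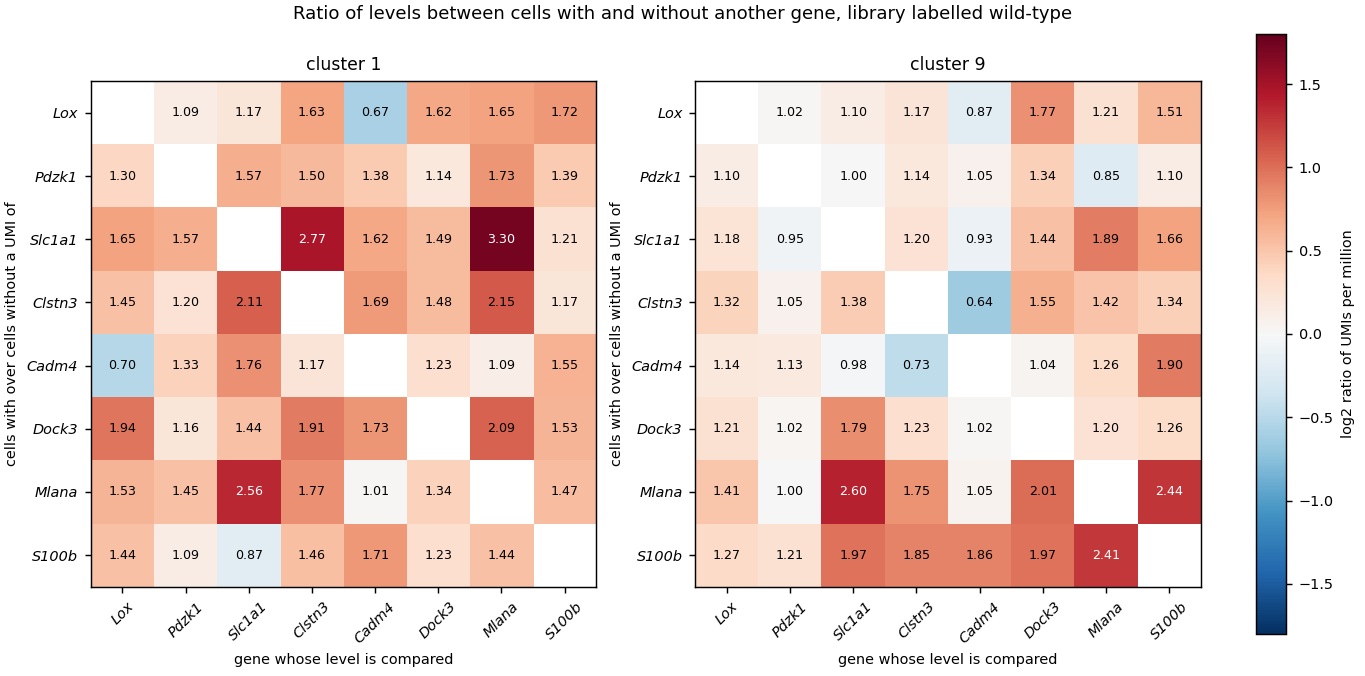
Ratio of the level of a gene (columns) in cells with a UMI of another gene (rows) to its level in cells without, in clusters 1 and 9 of the wild-type-labelled library, with colour for the log2 ratio. Red fields outnumber blue, and Slc1a1 with Mlana is the deepest in cluster 1, at 3.30 and 2.56. Pairs of other genes were not compared.

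The 52 cells of cluster 1 with over 2 Lox UMIs were compared with the 788 without any. This comparison was chosen after the values had been seen. Dock3 was at 120 and 47.1 CPM, a ratio of 2.54 (1.90 to 3.35), and Mlana at 41.8 and 17.1 CPM, a ratio of 2.45. Cadm4 was at 13.3 and 13.1 CPM. Gpnmb, a glycoprotein of lysosomes and melanosomes, was at 161 and 14.3 CPM, a ratio of 11.3 (8.23 to 15.4), and the cystine transporter gene Slc7a11 at 68.3 and 6.73 CPM. The MHC class II genes Cd74 and H2-Aa were lower in the cells with Lox, at 241 and 488 CPM and at 83.5 and 193 CPM. The medians were 9583 and 6685 UMIs per cell.

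Most tested relatives of the 8 genes differed by less than 4-fold. Of 71 other genes in 8 lists of families and pathways, 42 had at least 100 UMIs in RPM-like cells, of which 5 were at least 4-fold lower in the SCD-labelled library and 0 at least 4-fold higher, beside 1.9% and 1.26% of all genes tested. The lists were not tested against other genes. Among 15 other DOCK, ELMO and Rac genes, 13 reached that depth and 0 passed 4-fold, with Dock2 at a log2 ratio of 0.27, Dock4 at 0.94 and Dock5 at 1.47. Of the glutamate and cystine transport and glutathione genes, 8 of 9 reached it and 0 passed 4-fold. Slc1a3, which also carries glutamate, was at 243 and 513 CPM (log2 ratio 1.08), Slc1a2 at 1.32, and Slc7a11 at -1.38, the lowest of the list.

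Of the adhesion genes, Cadm1 was at 674 and 1144 CPM (log2 ratio 0.76), Clstn1 at -0.30 and Nrxn2 at -0.81. Loxl3, a lysyl oxidase of the same family as Lox, had 139 and 116 UMIs (0.95), while Loxl1, Loxl2 and Loxl4 stayed under 100 UMIs. Fn1, a matrix protein, had a log2 ratio of 0.01. Among the partners of Pdzk1, the receptor Scarb1 was at 90.3 and 132 CPM (0.55) and the related scaffold Slc9a3r1 at -0.27. Pdzk1ip1, whose product binds Pdzk1, had 350 and 20 UMIs, or 20.6 and 2.73 CPM, and a log2 ratio of -2.92.

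Among melanosome and pigment genes, Gpnmb had 316 and 1 UMIs (log2 ratio -7.09), the third largest fall of all genes tested. Mitf, the factor that directs melanocyte genes, was at 54.7 and 51.6 CPM (-0.08). Tyr and Tyrp1, the enzymes of pigment synthesis, had 0 UMIs in RPM-like cells of both libraries, Dct 1 and 0, and Pmel 7 and 5. Of 8 other S100 genes with enough UMIs, S100a9 (-4.26), S100a8 (-4.17) and S100a1 (-2.61) were at least 4-fold lower, and S100a4 (1.30) and S100a6 (0.99) were not.

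S100a8 and S100a9 are neutrophil genes, and the summed neutrophil markers were lower where the 8 genes were. The 7 summed to 110 CPM in RPM-like cells of the wild-type-labelled library and to 6.83 in those of the SCD-labelled library, where Ly6g was at 0. S100a8, S100a9, Ngp and Camp carried the sum, Ly6g and Retnlg had 2 and 7 UMIs in the wild-type-labelled library, and Cxcr2 went the other way, with 5 and 14 UMIs. Neutrophil-like cells were 276 (1.42%) and 15 (0.122%) of the kept cells. The 7 erythroid markers summed to 337 and 53.1 CPM in RPM-like cells, with none at 0. Their part in the levels of the 8 genes was not tested. Per 1000 macrophage-marker UMIs, Lox had 3.28 UMIs in RPM-like and 3.85 (2.58 to 5.53) in neutrophil-like cells. Markers of cells in which some of the 8 genes are best known were near 0. The 4 melanocyte markers summed to 0.472 and 0.683 CPM, the 4 glial markers to 3.95 and 6.55 and the 6 fibroblast markers to 0.354 and 0.137, with Tyr and Tyrp1, Sox10, and Col1a1 and Col3a1 at 0 in both libraries.

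**Figure D4:**
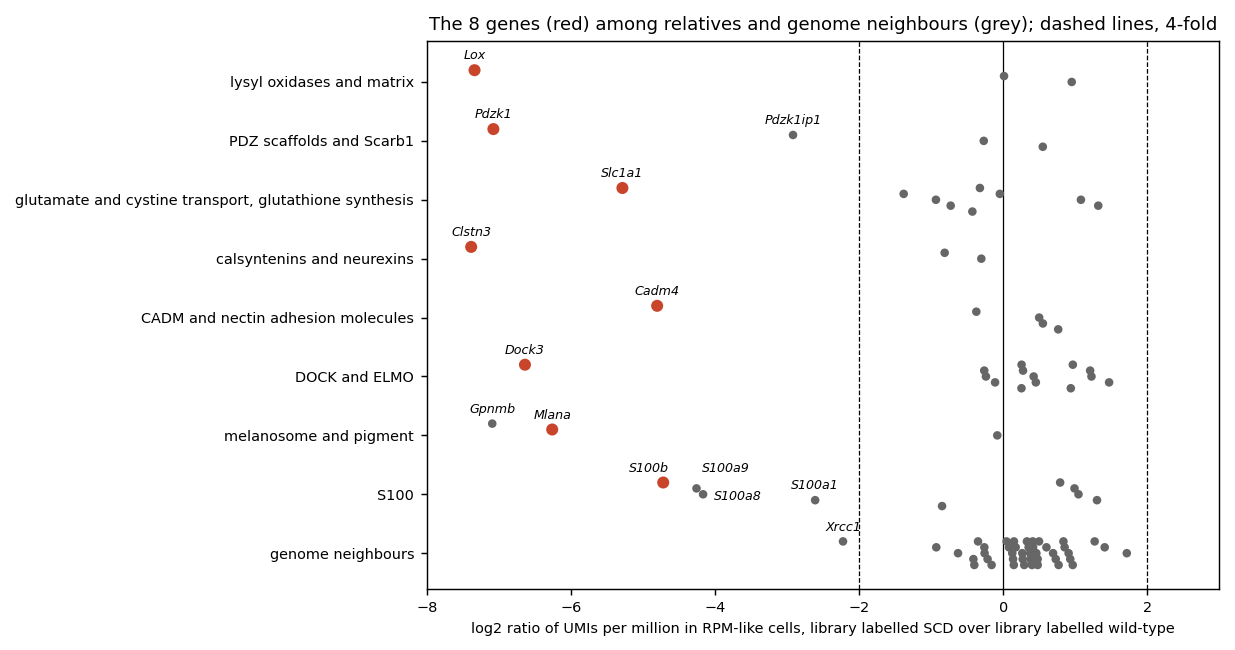
Log2 ratio of CPM in RPM-like cells (SCD-labelled over wild-type-labelled library, horizontal) of the 8 genes (red) and of the tested genes of their families and genome neighbours (grey), with dashed lines at 4-fold. The 8 genes lie between -7.38 and -4.72, and most grey points lie within the dashed lines, with Gpnmb at -7.09, S100a9, S100a8, Pdzk1ip1, S100a1 and Xrcc1 outside.

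Most tested genome neighbours of the 8 genes also differed by less than 4-fold. Of the 80 nearest genes, 5 on each side of each, 43 had at least 100 UMIs in RPM-like cells, 1 of which was at least 4-fold lower and 0 at least 4-fold higher, with a median log2 ratio of 0.35. The exception, Xrcc1, a DNA repair gene near Cadm4 (chr7:24546289-24573440), had 2131 and 197 UMIs, or 126 and 26.9 CPM (-2.22). Of the genes that start between Slc1a1 and Mlana, 9 were tested and 0 were at least 4-fold lower. They ran from -0.63 for Ak3 to 1.41 for Cd274, the gene of PD-L1.

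The genes whose pattern over clusters was most like each of the 8 are given by Pearson r of log2(CPM + 1), over 40 groups of cluster and library with at least 50 cells, or over the 23 of the wild-type-labelled library. The groups share libraries and free RNA, and genes that differ between the libraries are alike for that alone, so no p is given. Over both libraries Lox was nearest to Clstn3 (0.979) and Dock3 (0.975), and Pdzk1 to Mlana (0.971) and the scavenger receptor gene Marco (0.966). Slc1a1 was nearest to Dock3 (0.965), Cadm4 to Dock3 (0.952) and S100b to Clstn3 (0.969). Within the wild-type-labelled library the nearest gene was one of the 8 for Clstn3 alone. Lox was nearest to Ccdc152 (0.982), Pdzk1 to Il18bp (0.991), Mlana to Serpinb6a (0.973), Dock3 to Tsku (0.973), Slc1a1 to Lrrn3 (0.949), Cadm4 to Fsd2 (0.934) and S100b to Maged2 (0.933), while Clstn3 was nearest to Lox (0.968).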

How the data were processed

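Per the labels and methods, the authors aligned 3′ droplet libraries (10x) to the mouse genome with Cell Ranger (4.0.0 in the processing notes, 3.1.0 in the matrix header; build GRCm38.p6) and deposited the unnormalized UMI counts of each gene in each barcode. Both libraries were used.

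From these counts, a barcode was kept as a cell if it had 500 to 5000 genes, less than 15% mitochondrial UMIs and less than 30% of ribosomal proteins. Size factors came from scran 1.30.0 (R 4.3.3). The 2000 most variable genes, without the 8 genes, 7 heme genes, sex-linked genes and hemoglobin, were reduced to 30 principal components, then a graph of 15 neighbours and Leiden clusters at resolution 1 (scanpy 1.11.5, python-igraph 0.11.9, scipy 1.17.1, Python 3.11.15). A cluster was EBI-like when its macrophage markers reached 4 times (median) and its erythroid markers 2 times the main B cluster, and RPM-like when the macrophage markers alone reached 8 times. Other classes needed 3 markers in 10% of cells at 2 times the remaining cells. A cluster was left unnamed where its 10 leading genes held more markers of another cell type than of its own. These limits were set after the clusters had been seen. Doublets were left in. Scrublet set to its own threshold found 1748 (14.2%) in the SCD-labelled library but 0 in the other, so the caller did not work there, and 10.7% of that library were removed in an alternative.

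Levels are summed UMIs per 1000000 (CPM). Intervals are exact at 95% (Poisson, binomial and, for ratios, conditional binomial) and cover counting error only. A count of 0 was set to 3 counts per library. Genes with at least 100 UMIs in a class over both libraries were compared, and 4-fold was the limit. No test was possible with 1 mouse per group. On simulated counts for RPM-like cells, the direction and intervals of the ratio were checked.

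Genes named are the 8, in each family list the 4 genes with the largest absolute log2 ratios and the closest relatives, the 3 most similar patterns, neighbours past 4-fold, and Hba-a1, Hbb-bs, Hbb-bt, Ddx3y and the macrophage markers as checks of the libraries. Xist had no row. Genes just outside the rank of the 8 and those in cells with most Lox were chosen with their values in view, as were a few list genes at low counts. The 8 genes, the lists and the motifs were chosen with earlier results of these data known.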

Additional observations from a re-analysis of the deposited data

How the results depend on the processing

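The 10 alternatives of filtering, doublets, normalization, resolution, genes used for clustering, separate clustering, library total, weight of cells and gating without clusters, and thinning to 500 or 2000 UMIs, were run. All 8 genes were at least 4-fold lower in the SCD-labelled library in RPM-like cells under each of the 10, and in EBI-like cells under the 9 that define them (a gate without clusters does not). The log2 ratios ran from -8.89 to -2.58, and the shares of UMIs in macrophage-like cells from 65.8% to 90.7%, with 46 of these shares outside the counting interval of the reported one. With equal weight of cells, the log2 ratio in RPM-like cells was -4.94 for Slc1a1, a bound from 0 UMIs, and -4.97 for Dock3. With each library clustered on its own, it was -3.10 for Slc1a1 and -2.58 for S100b in EBI-like cells, where S100b is a bound from 0 UMIs. Slc1a1 also had 0 UMIs in EBI-like cells of the SCD-labelled library in the reported clustering, so its value may be a bound too. Ratios against counts of 0 to 5 are set by a few molecules, and the depth of the SCD-labelled library limits them. No paired analysis was possible because each group is 1 mouse and no result comes from a test.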
